A study of Mus musculus with 4 samples.

Results

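The core circadian clock was examined in macrophages from the peritoneal cavity of C57BL/6 mice through 10 genes, Per1, Per2, Per3, Cry1, Cry2, Arntl, Clock, Dbp, Nr1d1 and Nr1d2. They were taken by symbol from a count table of 24625 genes, and all 10 were found. The control group was fed standard chow and the other group a high-fat diet with 60% of its energy as fat, each for 12 weeks. Every mouse also received 3% thioglycollate medium, an irritant that draws macrophages into the peritoneal cavity, 4 days before the cells were taken, so no library represents resting resident macrophages alone. Each diet had 2 libraries. The sources used here leave unsaid whether a library is 1 mouse or a pool, and they do not give the age and sex of the mice or the hour of collection. The p-values below therefore measure only the spread between these libraries, which may be technical.

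The clock is a transcription loop that runs in nearly every cell. CLOCK and ARNTL (also called BMAL1) bind as a pair to E-box sequences and switch on the Per and Cry genes, whose proteins return to block the pair. The same pair drives Nr1d1 and Nr1d2, encoding the REV-ERB repressors that in turn hold down Arntl, and Dbp, an activator that works through D-box sequences. In mice kept in light and dark, Arntl RNA peaks around dawn, while Dbp, Nr1d1 and the Per genes peak between the middle and the end of the light phase. Macrophages carry such a clock, and it sets a daily rhythm in several of their inflammatory genes. RNA taken at different hours therefore differs in these genes whatever the treatment.

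The binding sites of this loop can be read in the promoters, and they are shown as the letters through which the factors of the loop are known to act. RefSeq promoter windows on GRCm38.p6, each from 250 bases before to 50 after an annotated start, were matched for 9 members with 13 windows. Per2 was not matched. Both strands were searched for the E-box CACGTG, its variant CACGTT, the D-box TTATGTAA, the REV-ERB and ROR core TAGGTCA and the cyclic AMP element TGACGTCA; none of these overlapped another in a window. Capitals mark the matched motif, and each stretch reads 5′ to 3′ on the gene's strand.
Per1: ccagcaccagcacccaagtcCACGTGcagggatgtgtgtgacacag
Cry1: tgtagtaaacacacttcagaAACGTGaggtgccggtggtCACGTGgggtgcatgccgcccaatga
Cry2: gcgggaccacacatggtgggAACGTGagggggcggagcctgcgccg
Nr1d1: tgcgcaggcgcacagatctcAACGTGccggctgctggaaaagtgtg
Per3: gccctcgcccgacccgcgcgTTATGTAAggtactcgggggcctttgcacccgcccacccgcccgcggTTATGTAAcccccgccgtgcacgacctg
Arntl: aggcagaaagTAGGTCAgggacggagg

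The Per1 stretch lies at chr11:69098763-69098808 on the plus strand, with its E-box 166 bases before the start. The Cry1 stretch, at chr10:85185089-85185153 on the minus strand, holds the variant, read on the opposite strand, and a CACGTG box 60 bases before the start. Cry2 (chr2:92434210-92434255, minus strand) and Nr1d1 (chr11:98775380-98775425, minus strand) each hold 1 variant on the opposite strand. Per3 (chr4:151044796-151044890, minus strand) holds 2 copies of the D-box, the letters through which DBP acts. In Arntl (chr7:113207531-113207557, plus strand) the REV-ERB and ROR core begins at base 31 after the later of its 2 annotated starts. Over all 32851 windows of 300 bases, CACGTG was present in 7.15%, CACGTT in 4.68%, TTATGTAA in 0.938%, TAGGTCA in 2.61% and TGACGTCA in 1.79%. The cyclic AMP element was in none of the 13 windows, and the windows of Clock, Dbp and Nr1d2 held none of the 5 motifs. These are matches of letters in a short window and say nothing on binding or on sites elsewhere in the genes.

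Total RNA depleted of ribosomal RNA had been sequenced, and reads were counted per gene without normalization. The libraries held 39347347 to 45658551 counts on genes. Levels are given as CPM, the count scaled to its library's total after TMM scaling, which corrects for differences in composition. For 1 library the 95% interval is the exact Poisson interval of its count; it covers counting error only, since reads without molecular identifiers are not independent molecules. All 10 members passed the filter on low counts that left 12747 genes, and the smallest count behind a value was 19. Macrophage markers were abundant in every library: the summed level of Emr1, Cd68, Itgam, Csf1r, Lyz2 and Mertk was 25186 to 26290 CPM with control diet and 19533 to 23921 CPM with high-fat diet, and none was at 0. Most of that sum was Lyz2, encoding lysozyme, and without it the sum was 3092 to 3359 against 2926 to 3134 CPM. Of the 6 markers 5 were below 0 in log2 fold change, and Mertk, a receptor for apoptotic cells, was called lower with high-fat diet (-0.69, adjusted p = 0.0449, edgeR quasi-likelihood test). Csf1r, the receptor of the macrophage growth factor CSF1, had -0.52 (adjusted p = 0.0704). The part of these markers in the members' values was not tested.

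The clock genes were present at very unequal levels. Per kb of merged exon length, Nr1d2 stood highest at 29.3 ± 2.47 CPM per kb (SD over 4 libraries, as for the other values per kb), Clock next at 11.01 ± 0.532, and Cry1 and Arntl at 3.38 ± 0.396 and 3.35 ± 0.411. Below them came Per1 at 1.09 ± 0.186, Per3 at 0.888 ± 0.133, Dbp at 0.677 ± 0.107, Per2 at 0.582 ± 0.0945, Cry2 at 0.531 ± 0.0889 and Nr1d1 at 0.354 ± 0.125 CPM per kb. Nr1d2, Clock and the pair of Cry1 and Arntl were each apart from the next gene in all libraries, as was that pair from Per1. Cry1 and Arntl overlapped, and so did every pair of neighbours from Per1 down to Nr1d1. The median over all 12747 genes was 5.20 CPM per kb, so that only Nr1d2 and Clock were above it.

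**Figure D1:**
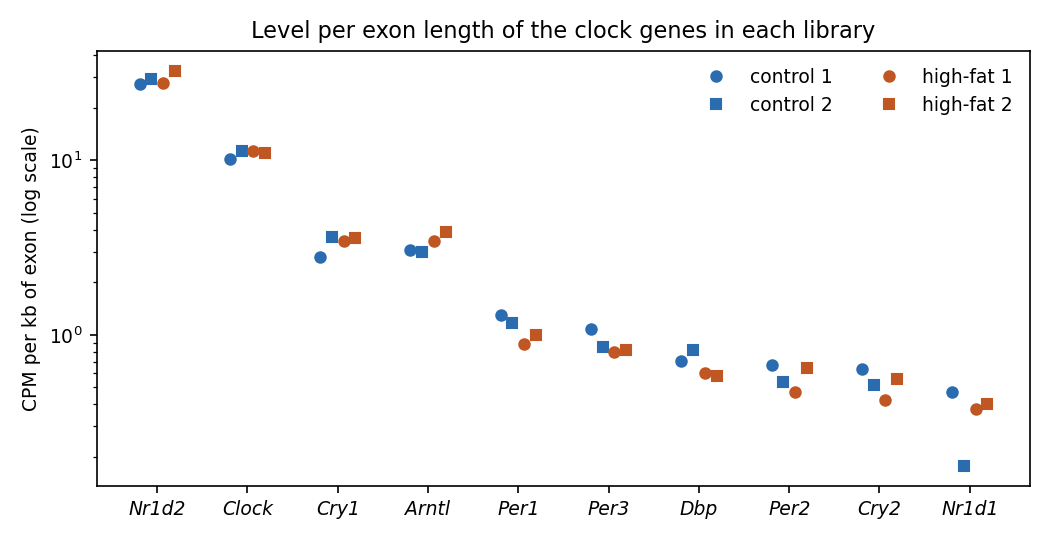
Level of each clock gene as CPM per kb of merged exon length on a log axis, with 1 point per library (blue, control diet; orange, high-fat diet; circle, replicate 1; square, replicate 2). Genes are ordered by their mean, from Nr1d2 at 29.3 to Nr1d1 at 0.354 CPM per kb, and the control replicate 2 point of Nr1d1 lies apart from its other 3 libraries.

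Paralogs of the same arm differed widely. The level of Nr1d2 per kb was 58.8 to 165 times that of Nr1d1 over the 4 libraries, with the highest ratio in control replicate 2. Cry1 was 4.41 to 8.27 times Cry2, and Clock 2.84 to 3.79 times its partner Arntl. Among the Per genes Per1 was 1.55 to 2.20 times Per2, and Per3 was 1.26 to 1.70 times Per2. These ratios have no test. They rest on the annotated exon lengths, so that unused exons or transcript ends would change them.

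None of the 10 clock genes passed the threshold for a diet difference. The edgeR quasi-likelihood test called 0 of 10 at an adjusted p of 0.05 over all genes, where 78 of 12747 genes (0.612%) were called. At an unadjusted p under 0.05 it also gave 0 of 10, beside 17.0% of all genes, and DESeq2 and limma-voom each called 0 of 10. By log2 fold change, high-fat over control, 5 members were above 0 and 5 below, with a median of -0.030 against -0.0054 over all genes. In 4 members the libraries of the diets did not overlap, Arntl above and Per1, Per3 and Dbp below with high-fat diet; such separation was seen in 51.0% of all genes. The members' share was thus no higher than the background. In the same libraries other cells' transcripts also differed, and their part in the clock gene values was not tested. Since these are bulk samples, fewer cells of a type and less RNA per cell cannot be told apart.

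**Figure D2:**
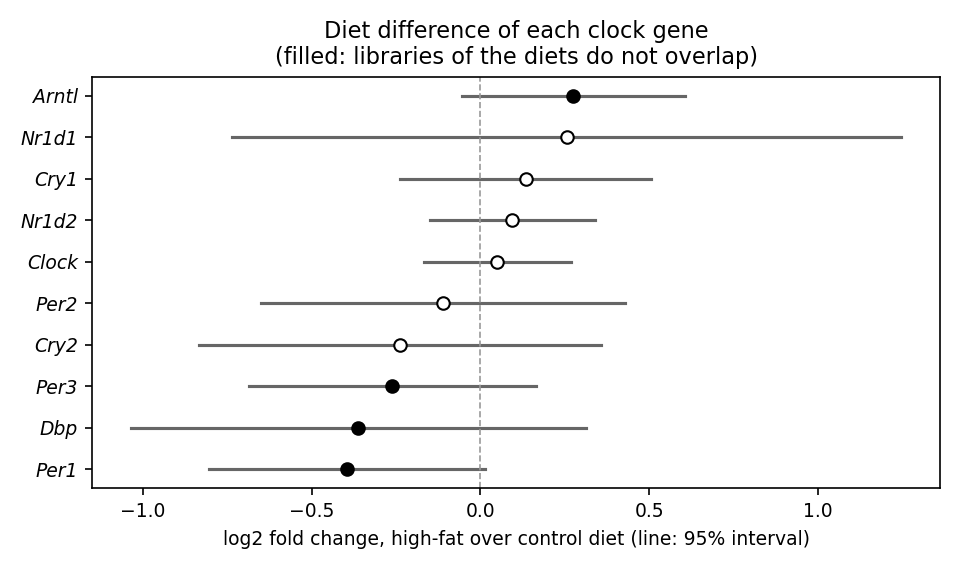
Log2 fold change of each clock gene, high-fat over control diet, with its 95% interval from the edgeR quasi-likelihood fit; filled points mark genes whose libraries of the 2 diets do not overlap. All 10 intervals include 0, and they range from -0.17 to 0.27 for Clock to -0.74 to 1.25 for Nr1d1.

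Among the activators, Arntl was higher in both high-fat libraries without passing the threshold, and the diets overlapped for Clock. Arntl (chr7:120350979-120457640 on mm9, plus strand, 20 exon blocks), the DNA-binding partner of CLOCK, stood at 8.89 and 8.73 CPM with control diet (replicates 1 and 2, the order used throughout) and at 10.04 and 11.3 CPM with high-fat diet. Both high-fat libraries were above both controls, and the Poisson intervals of high-fat replicate 1 and of both controls overlapped. The log2 fold change was 0.28 ± 0.15 (SE; 95% interval -0.055 to 0.61, adjusted p = 0.371, edgeR quasi-likelihood test). Clock (chr5:76638893-76733817, minus strand, 24 exon blocks), whose protein also acetylates histones, stood at 101.8 and 113 CPM with control diet and at 113 and 109.5 CPM with high-fat diet. Its diets overlapped, with control replicate 1 lowest, and its log2 fold change of 0.051 ± 0.097 had the narrowest interval of the 10, -0.17 to 0.27 (adjusted p = 0.811).

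The Per genes, partners of the CRY proteins in the repressor complex, all had log2 fold changes below 0, and none passed the threshold. Per1 (chr11:68912458-68923459, plus strand, 24 exon blocks), which is also induced rapidly by glucocorticoids and cyclic AMP, stood at 6.14 and 5.51 CPM with control diet and at 4.16 and 4.71 CPM with high-fat diet. Both high-fat libraries were below both controls. Its log2 fold change of -0.40 ± 0.18 was the lowest of the 10 (95% interval -0.80 to 0.014, adjusted p = 0.305, edgeR quasi-likelihood test). Per2 (chr1:93312559-93355905, minus strand, 23 exon blocks), the paralog most needed for the rhythm, stood at 3.93 and 3.12 CPM with control diet and at 2.76 and 3.78 CPM with high-fat diet. The diets overlapped, and the log2 fold change was -0.11 ± 0.24 (-0.65 to 0.43, adjusted p = 0.834). Per3 (chr4:150377764-150418774, minus strand, 22 exon blocks), a member with a smaller role in the loop, stood at 6.56 and 5.15 CPM with control diet and at 4.85 and 4.93 CPM with high-fat diet. Control replicate 1 was highest, while control replicate 2 exceeded the higher high-fat library by less than either Poisson interval is wide. The log2 fold change was -0.26 ± 0.19 (-0.69 to 0.16, adjusted p = 0.504), and without control replicate 1 it was -0.087.

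The Cry genes encode the repressors that bind CLOCK and ARNTL most tightly, and neither differed between diets beyond its spread. Cry1 (chr10:84594445-84647799, minus strand, 13 exon blocks) stood at 2.79 and 3.65 CPM per kb with control diet and at 3.47 and 3.59 CPM per kb with high-fat diet. Control replicate 1 was the low library, and the other 3 lay within each other's Poisson intervals. The log2 fold change was 0.13 ± 0.17 (-0.24 to 0.51, adjusted p = 0.699, edgeR quasi-likelihood test). Cry2 (chr2:92243804-92274226, minus strand, 12 exon blocks) stood at 2.53 and 2.06 CPM with control diet and at 1.68 and 2.23 CPM with high-fat diet, with overlapping diets. Its log2 fold change was -0.24 ± 0.26 (-0.83 to 0.36, adjusted p = 0.664), and with 1 high-fat library left out it was -0.044 (replicate 1) or -0.45 (replicate 2). The exons of Cry2 overlap a gene on the opposite strand, D930015M05Rik, over 149 bases; that gene had 0 counts in every library.

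The REV-ERB genes differed from each other in level and in how well they were measured. Nr1d2 (chr14:19036570-19071620, minus strand, 8 exon blocks) stood at 127 and 135 CPM with control diet and at 128 and 152 CPM with high-fat diet. High-fat replicate 2 was highest, the other high-fat library lay between the controls, and the log2 fold change was 0.095 ± 0.11 (-0.15 to 0.34, adjusted p = 0.676, edgeR quasi-likelihood test). Nr1d1 (chr11:98629246-98636691, minus strand, 8 exon blocks) had 52 and 19 counts with control diet and 48 and 44 with high-fat diet, or 1.29, 0.489, 1.03 and 1.10 CPM. Control replicate 2 was far below the others: its Poisson interval of 0.295 to 0.764 CPM does not reach that of control replicate 1, 0.965 to 1.69 CPM. The replicates differed by 1.40 on the log2 scale, a difference reached by 1.07% of 12743 genes with counts in every library. The log2 fold change of 0.26 ± 0.44 had the widest interval of the 10 (-0.74 to 1.25, adjusted p = 0.788); it was 1.11 without control replicate 1 and -0.28 without control replicate 2.

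Reads from a neighbour on the other strand could enter the count of Nr1d1. In the deposited models the exons of Nr1d1 overlap no other gene, but in GENCODE M21 (GRCm38) exons of Thra, the thyroid hormone receptor gene on the opposite strand, cover 263 bases of them (9.67%). The sources used here do not say whether strand was used. Thra itself stood at 3.58 and 2.42 CPM with control diet and at 2.95 and 2.65 CPM with high-fat diet, also lowest in control replicate 2. Its part in the Nr1d1 values was not tested.

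Dbp, the D-box activator and usually among the strongest rhythmic outputs of the clock, was scarce in these macrophages. Dbp (chr7:52960617-52965573, plus strand, 4 exon blocks) had 48 and 53 counts with control diet and 47 and 39 with high-fat diet, or 1.19, 1.37, 1.01 and 0.976 CPM. Both high-fat libraries were below both controls, but all 4 Poisson intervals overlapped. The log2 fold change was -0.36 ± 0.30 (-1.04 to 0.31, adjusted p = 0.555, edgeR quasi-likelihood test). The exons of Dbp overlap those of Sphk2, a sphingosine kinase gene on the opposite strand, over 539 bases, 32.1% of the Dbp length. Strand use is not given, so reads in that stretch may have been left out as ambiguous. The level of Dbp per kb divides by its full length, so this level and its rank could then be too low. Sphk2 stood at 12.7 and 8.84 CPM with control diet and at 9.26 and 7.63 CPM with high-fat diet, and its part in the Dbp values was not tested.

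**Figure D3:**
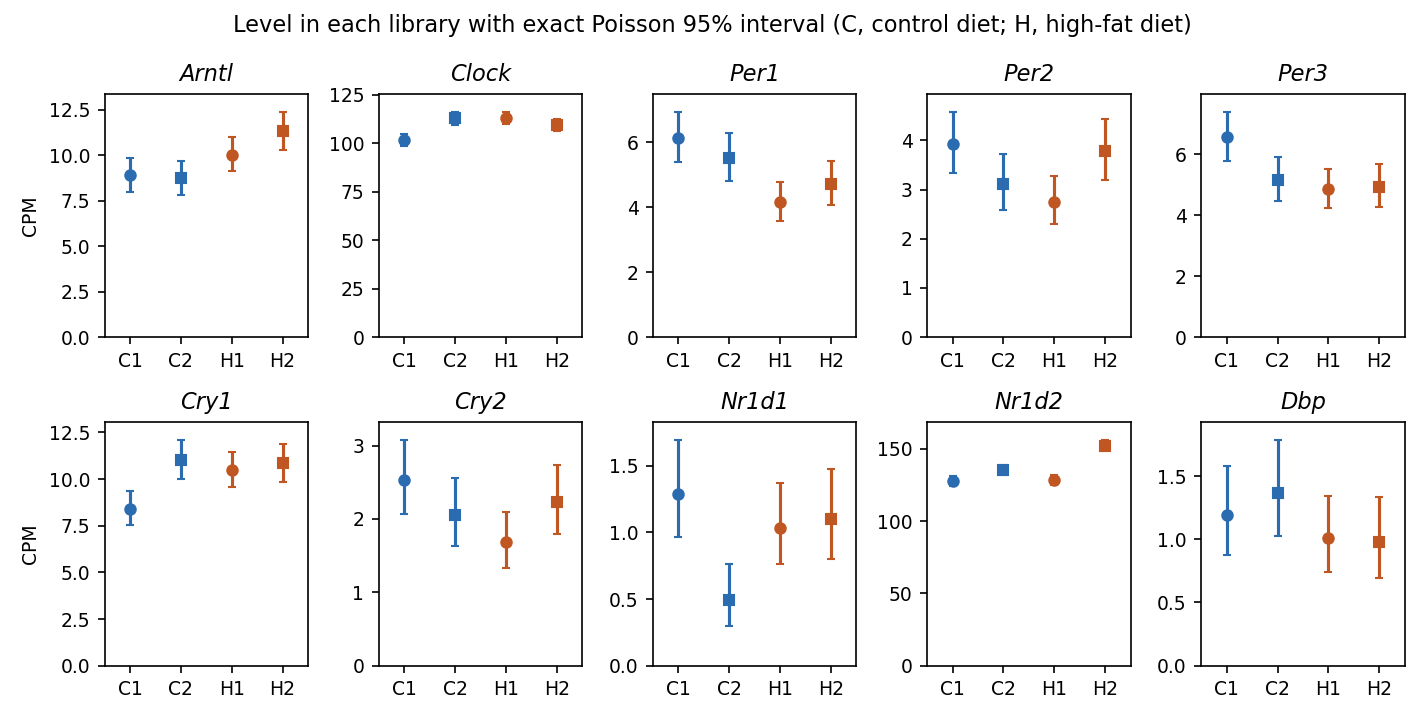
CPM of each clock gene in control replicates 1 and 2 (C1, C2) and high-fat replicates 1 and 2 (H1, H2), with the exact Poisson 95% interval of each count and axes that start at 0. Arntl is higher and Per1, Per3 and Dbp are lower in both high-fat libraries, and Nr1d1 is low in control replicate 2 alone.

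The hour of collection is not among the labels, so the clock genes were also read as a comparison of libraries. Over the 4 libraries, the highest level of a member was 1.11 times the lowest for Clock and 1.51 times for Cry2, with 7 other members in between and Nr1d1 at 2.64 times. Between control replicates the median size of a member's difference was 0.25 on the log2 scale, against 0.17 over 12743 genes, and 6 members were higher in replicate 1. Between high-fat replicates it was 0.13 against 0.15, and 2 members were higher in replicate 1. Between the means of the diets it was 0.25 against 0.18. The median between diets was thus close to that between the control replicates and above that between the high-fat replicates. Means of 2 libraries vary less than single libraries, so these sizes are not on an equal footing and no conclusion is drawn from them.

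Genes of the light phase were then set against Arntl and its partner Clock. A shift in hour would move the light-phase genes and Arntl in opposite directions in a clock that runs in step. The mean log2 CPM of 6 genes that peak in the light phase (Per1, Per2, Per3, Dbp, Nr1d1 and Nr1d2) minus that of Arntl and Clock was -2.40 and -2.78 with control diet, against -2.90 and -2.81 with high-fat diet. Control replicate 1 stood apart, and control replicate 2 exceeded the nearer high-fat library by less than the high-fat replicates differed. The diets' means differed by -0.26, and by -0.078 without control replicate 1. Taken apart, the light-phase mean was 2.51 and 2.20 with control diet and 2.18 and 2.33 with high-fat diet, which overlap. The mean of Arntl and Clock was 4.92 and 4.98 with control diet and 5.08 and 5.14 with high-fat diet. No test is given for this score over the members. Without Nr1d1, a choice made after its low control count was seen, the values were -1.99 and -2.16 with control diet and -2.49 and -2.38 with high-fat diet. Leaving out Per1 instead made the diets overlap, with control replicate 2 at -2.83 and high-fat replicate 2 at -2.79.

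Taken singly, the genes of the light phase gave the same order relative to Arntl except Nr1d1. Dbp minus Arntl was -2.85 and -2.63 with control diet and -3.25 and -3.47 with high-fat diet on the log2 CPM scale. Per1 minus Arntl was -0.53 and -0.66 with control diet and -1.26 in both libraries of the high-fat diet. Per2, Per3 and Nr1d2 minus Arntl were also lower in both high-fat libraries, with differences of -0.39, -0.52 and -0.18 between the means. Nr1d1 minus Arntl was -2.74 and -4.03 with control diet and -3.22 and -3.30 with high-fat diet, which overlap. All 6 differences share the Arntl value, so they are not independent of one another. Arntl itself was higher in both high-fat libraries, which lowers each difference there. By their own levels Per2 and Nr1d2 overlapped between diets, and Nr1d2 had a log2 fold change of 0.095. The share of all genes lower relative to Arntl was not counted, so nothing is read from the number of genes. Diet and the hour of collection cannot be told apart in these libraries.

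**Figure D4:**
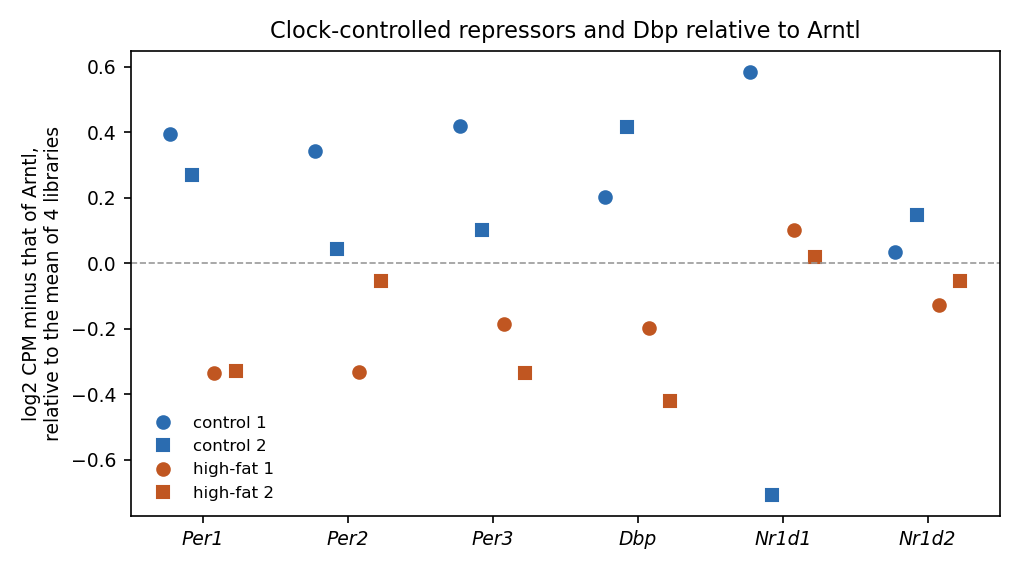
Log2 CPM of 6 clock genes minus that of Arntl in each library, relative to the mean of the 4 libraries (blue, control diet; orange, high-fat diet; circle, replicate 1; square, replicate 2). High-fat points lie below control points for 5 genes, while the Nr1d1 points of the control diet lie on both sides of the high-fat points. Arntl itself was higher in both high-fat libraries, which lowers all high-fat points.

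Other genes of the clock did not pass either. Of 10 further activators, ROR receptors and repressors 7 were measured, with 3 above 0, 4 below, a median log2 fold change of -0.13 and 0 called by edgeR (3 at an unadjusted p under 0.05). Bhlhe41, encoding the E-box repressor DEC2, stood at 102.5 and 104.4 CPM with control diet and at 68.7 and 77.1 CPM with high-fat diet. It had the smallest p of the list (log2 fold change -0.50 ± 0.10, adjusted p = 0.0602, edgeR quasi-likelihood test). Bhlhe41 passed by DESeq2 (adjusted p = 0.00430) and with no filter on low counts (0.00368). Without high-fat replicate 2, which leaves 1 high-fat library, its log2 fold change was -0.59. Tipin, a replication fork protein that partners TIMELESS, had a log2 fold change of 0.51 ± 0.13 (adjusted p = 0.116) and passed with no filter on low counts (adjusted p = 0.0421). Npas2, a paralog of Clock, stood at 1.89 and 1.75 CPM with control diet and at 1.01 and 1.23 CPM with high-fat diet (-0.70 ± 0.28, adjusted p = 0.258). Npas2 is under the REV-ERB and ROR arm like Arntl, and its libraries were separated in the opposite direction. Rorb had 0 counts in every library.

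The remaining machinery gave no call. Both measured D-box factors of 3 listed had values below 0: Nfil3, the D-box repressor, at -0.42 ± 0.25 and Tef, a paralog of Dbp, at -0.17 ± 0.10. All 9 kinases, ubiquitin ligases and cofactors were measured, with a median of 0.055 and 5 above 0. Csnk1d, the kinase that marks PER proteins for decay, had -0.21 ± 0.10, the cofactor Nono 0.15 ± 0.093 and the deubiquitinase Usp2 0.35 ± 0.26. In these lists edgeR called 0 genes, and 0 at an unadjusted p under 0.05.

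Genes known to answer to the clock or to signals that reset it included 3 that passed, beside 0.612% of all genes called. These lists were chosen with earlier results of these data known. At an unadjusted p under 0.05 the edgeR test gave 4 of 7 outputs and targets and 4 of 8 glucocorticoid-responsive genes. Tsc22d3 is in both lists and counts in each, and the 4 outputs and targets include Il6. For immediate early genes the edgeR test gave 2 of 9, beside 17.0% of all genes. Because of how the lists were chosen, no excess is read from these counts. Of 7 clock outputs and REV-ERB targets, Mmp9, a gelatinase repressed by REV-ERB proteins in macrophages and also a neutrophil product, fell from 21.4 and 18.2 CPM to 6.01 and 8.26 CPM (log2 fold change -1.48 ± 0.18, adjusted p = 0.0161, edgeR quasi-likelihood test). The other 6 did not pass, and the median of the list was 0.13; Il6, one of them, reached the filter's minimum with high-fat diet only. The summed level of neutrophil markers was also lower in both high-fat libraries (51.7 and 46.1 CPM against 65.7 and 73.3). Without Csf3r, the receptor of the neutrophil growth factor, the sum overlapped between diets, at 23.4 and 33.7 CPM with control diet and 23.8 and 23.1 CPM with high-fat diet. Ltf of the neutrophil list was also lower in both high-fat libraries. The part of neutrophils in the Mmp9 value was not tested. The call of Mmp9 was lost without either control library, in fits that leave 1 control library. Its log2 fold change was -1.36 without control replicate 1 and -1.59 without control replicate 2. Of 8 glucocorticoid-responsive genes Errfi1, an inhibitor of EGF receptor signalling, rose from 17.8 and 16.0 to 26.5 and 29.2 CPM (0.72 ± 0.12, adjusted p = 0.0456, edgeR). This list had 4 above 0, 4 below and a median of 0.10. Sgk1 (-0.39 ± 0.12) and Tsc22d3 (-0.23 ± 0.099) were lower in both high-fat libraries. Dusp1 (0.44 ± 0.12) was higher in both, and none of these passed. Ddit4 of this list reached the filter's minimum with high-fat diet only. Of 9 measured immediate early genes Fos, a subunit of the AP-1 factor, rose from 58.4 and 61.4 to 87.8 and 91.2 CPM (0.58 ± 0.093, adjusted p = 0.0387), with 4 above 0, 5 below and a median of -0.032. The calls of Errfi1 and Fos were also lost without either control library, in fits that leave 1 control library. By limma-voom the adjusted p was 0.0717 for Errfi1 and 0.0652 for Fos. Errfi1 also missed the threshold with a CPM filter (0.0519), without robust fitting (0.0546) and with the replicate block (0.0515).

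Genes that follow body temperature, another cue that sets clocks in peripheral cells, did not pass. Of 7 measured, 5 were above 0 with a median of 0.23, and edgeR called 0, with 2 at an unadjusted p under 0.05 and adjusted p from 0.215 upward. Hspa8, a constitutive chaperone, stood at 2941 and 3144 CPM with control diet and at 3702 and 4073 CPM with high-fat diet (0.35 ± 0.13). The chaperones Hspa1a and Hsp90aa1 had 0.59 ± 0.26 and 0.23 ± 0.13. Both were lower without high-fat replicate 2, at 0.21 for Hspa1a and 0.051 for Hsp90aa1. Without high-fat replicate 1, which leaves 1 high-fat library, Hspa1a had 0.90. Its high-fat libraries were unequal, at 3.17 CPM in replicate 1 and 5.11 CPM in replicate 2.

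**Figure D5:**
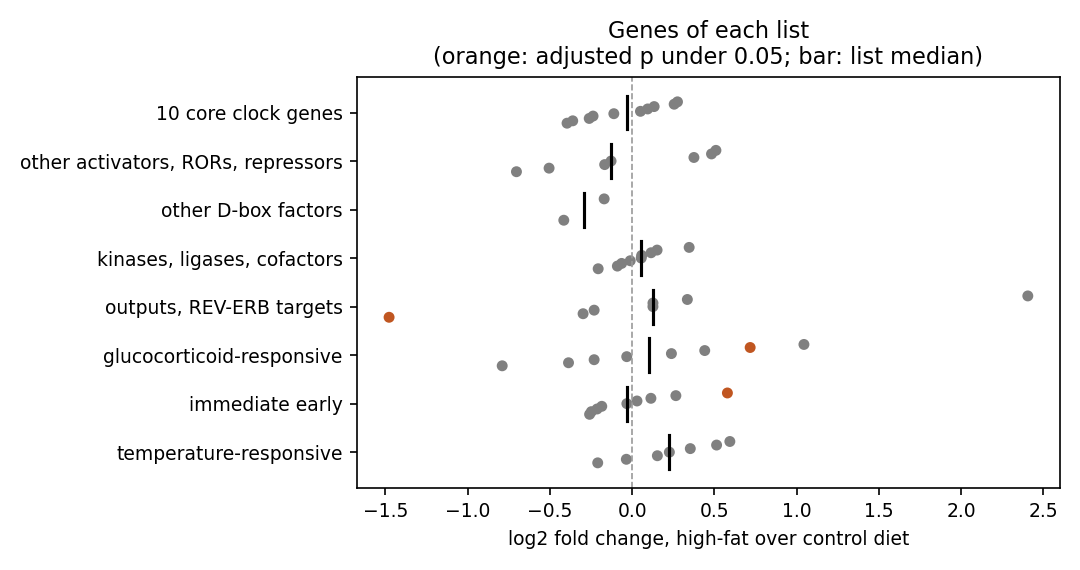
Log2 fold change, high-fat over control diet, of every measured gene in the 10 core clock genes and 7 related lists, with orange points for genes past an adjusted p of 0.05 and a bar at each list's median. The core clock genes lie between -0.40 and 0.28, and the 3 called genes are Mmp9, Errfi1 and Fos.

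Markers of other cells moved with diet or with 1 library. The summed level of 13 mesothelial and fibroblast markers was 20.7 to 28.1 CPM with control diet and 85.4 to 173 CPM with high-fat diet, with 9 members past the filter and 1 called (Lum). Lum and Wt1 reached the filter's minimum with high-fat diet only and could be kept only if higher there, so the members' directions are not counted. For 8 neutrophil markers it was 65.7 to 73.3 CPM against 46.1 to 51.7 CPM, with 6 past the filter and 1 called (Csf3r). Without Csf3r the sum overlapped between diets, as given above, and so did S100a8, S100a9 and Cxcr2. Ltf was lower in both high-fat libraries (0.820 and 0.799 against 0.452 and 0.125 CPM). The 6 past the filter were all below 0 in log2 fold change, but Retnlg reached the minimum with control diet only. For 5 dendritic cell markers the sum was 9.51 to 9.79 CPM against 3.12 to 3.83 CPM, with 5 past the filter, Siglech through control diet only, and 1 called (Cd209a). Of these Zbtb46 overlapped between diets, at 1.69 and 1.42 CPM with control diet and 1.23 and 1.85 CPM with high-fat diet. For 4 eosinophil markers the sum was 7.35 to 15.6 CPM against 2.90 to 3.32 CPM, and 2 of 2 were below 0 with 0 called by edgeR (2 at an unadjusted p under 0.05). The summed levels of B cell and of T and NK cell markers were highest in high-fat replicate 2, at 202 and 17.6 CPM. In the other libraries they were 113 to 122 and 2.89 to 4.59 CPM. Some members went another way: Cd22 was lowest in high-fat replicate 2, and Igj was highest in high-fat replicate 1. Klrb1c and Ncr1 were highest in a control library. Of 8 B cell markers 7 were above 0 and 1 was called (Igj). Of 6 T and NK cell markers past the filter, Cd8a through high-fat diet only, 0 were called by edgeR (1 at an unadjusted p under 0.05). The calls of Lum, Csf3r, Cd209a, Igj and the macrophage gene Mertk were each lost without either control library. Those fits leave 1 control library and call fewer genes of all than the main fit. Without either high-fat library the calls were kept, in fits that leave 1 high-fat library and call more genes of all than the main fit. By limma-voom Lum (adjusted p = 0.0669), Csf3r (0.0776), Igj (0.0718) and Mertk (0.0717) also missed the threshold, and Cd209a passed it (0.0324). By edgeR, Csf3r, Igj and Mertk also missed it with a CPM filter (0.0519, 0.0549 and 0.0519) and without robust fitting (0.0586, 0.0620 and 0.0546). Csf3r and Igj missed it without overlapping genes (0.0528 for each), and Igj with the replicate block (0.0650). No marker in these 6 lists was at 0 in all 4 libraries, while Epx and Prg2 of the eosinophil list had 0 counts in both high-fat libraries and the neutrophil gene Ngp in both controls.

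The genes whose pattern over the 4 libraries was most like that of Dbp and of Arntl were found by the root-mean-square distance of their centred log2 CPM, among 8545 genes whose mean reached 5 CPM. For Dbp these were Rps10 (distance 0.011), Sesn1 (0.013) and Lonrf3 (0.014), and for Arntl Rfk (0.0054), Arl14ep (0.012) and Tmtc3 (0.013). Rps10, a ribosomal protein gene with near-identical copies in the genome, is an uncertain count. With 4 libraries many genes share any pattern, and 25 genes lay within 2 times the distance of the third for Arntl. None of the 6 passed the threshold, with adjusted p from 0.154 to 0.243 in the edgeR quasi-likelihood test.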

How the data were processed

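The authors deposited raw counts of reads per gene, 1 table per library, with the mm9 gene models behind them. The tools TopHat2 2.0.10, Cufflinks 2.1.1 and HTSeq and the build mm9 come from the submitters' processing notes; the sources used here give no settings and no strand use. Summary lines (5 per table) were left out: reads aligned at several places were 37.5% to 48.5% of the total, reads outside gene models 13.5% to 15.0% and ambiguous reads 0.664% to 0.823%.

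Genes passing filterByExpr (minimum count 10, total 15) were tested in edgeR 4.0.16 (R 4.3.3) by the robust quasi-likelihood test, with TMM factors, a model of diet alone and 2 residual degrees of freedom. Benjamini-Hochberg adjustment ran over all 12747 kept genes, threshold 0.05. The SE is the absolute log2 fold change over the root of F, and the 95% interval uses the moderated degrees of freedom. The fit was tested on simulated data. Log2 CPM used a prior count of 2; exon lengths are merged exons. Alternatives were DESeq2 1.42.0, limma-voom (limma 3.58.1), RLE factors, other filters, no robust fitting, a replicate block, no overlapping genes and each library left out. All 10 members are named; of each other list, the genes called or else the 3 with the smallest p. The members and lists were chosen with earlier results of these data known. Promoters are RefSeq's on GRCm38.p6, and no coordinate was moved between builds.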

Additional observations from a re-analysis of the deposited data

How the results depend on the processing

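The count of 0 clock genes called held in all 12 alternatives, including the replicate block, RLE factors and the fit without overlapping genes, in which 8 of the 10 were tested; the smallest adjusted p of a member was 0.223. Of 118 member values under alternatives 112 kept their direction. The 6 that reversed came from leaving out 1 library. Per2 had a log2 fold change of 0.056 without control replicate 1 and 0.10 without high-fat replicate 1, in a range of -0.36 to 0.10 over the 4 such fits. Cry1 ran from -0.058 without control replicate 1 to 0.34, Clock from -0.034 without control replicate 1 to 0.13, Nr1d1 from -0.28 without control replicate 2 to 1.11, and Nr1d2 from -0.035 without high-fat replicate 2 to 0.21. Arntl, Per1, Per3, Cry2 and Dbp kept their direction in every fit that included them. Over all genes the 78 calls became 366 by DESeq2, 28 by limma-voom, 522 with no filter and 46 with a CPM filter, and ran from 15 to 831 when each library was left out; the cause was not tested. The labels number replicates 1 and 2 in both diets without saying that the numbers pair the samples, and with the replicate block 113 genes and 0 clock genes were called. The diet difference of light-phase genes minus Arntl and Clock, -0.26, was -0.21 without Per1 and -0.25 for Dbp and Nr1d1 against Arntl alone. In both of these settings the diets overlapped. The difference was -0.36 without Nr1d1 and ran from -0.45 to -0.078 when each library was left out. These last 2 settings were chosen after seeing the data. Dbp and Nr1d1 rested on counts of 19 to 53. The 95% intervals of their fold changes ran from 0.488 to 1.24 times for Dbp and from 0.601 to 2.37 times for Nr1d1.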
